A study of Mus musculus with 24 samples.

Results

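The 8 genes described here encode crystallins, the main water-soluble proteins of the eye lens: Cryaa of the alpha family, Cryba1, Cryba4, Crybb1, Crybb2 and Crybb3 of the beta family, and Crygb and Crygs of the gamma family. They were chosen by name, as the members whose symbol the platform annotation gives to a probe set, and are 8 of the 18193 genes that the arrays represent. Crystallins are made in very large amounts in the elongated fibre cells of the lens, where their close packing gives transparency and refractive power. Alpha crystallins belong to the small heat shock proteins and act as chaperones, while beta and gamma crystallins share a fold of Greek key motifs and are mainly structural. Lower levels of several crystallins are known in retinal neurons and glia, and the lens lies against the inner side of the eye from which a retina is taken.

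RNA was measured in retinas and pineal glands of C57BL/6J mice of both sexes, 2 months old. Controls were NeuroD1flox::Crx-Cre-/-, and conditional knockouts (cKO) were NeuroD1flox::Crx-Cre+/-, so that both genotypes carried the floxed alleles and the cKO mice also had Cre under control of Crx, whose promoter is active in photoreceptor cells and pinealocytes. Tissue was taken at ZT6, by day, and at ZT20, by night under dim red light, and every array held a pool of 6 retinas or 6 glands. With 8 groups and 3 pools in each there were 24 arrays, and the labels do not say whether pools of one number share animals. So p-values reflect only how far pools of a group differ, with each gene's spread drawn toward one shared by all genes. Signals are linear array units, the median of an array lay between 107.1 and 158.8 for pineal and between 107.8 and 183.1 for retinal pools, and the highest signal of any probe set was 20540. Each of the 8 genes had 1 probe set of its own, so that levels are compared between pools of 1 gene and not between genes.

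Neurod1, the gene removed in the cKO, was read first. In the retina its signal was 6967, 6554 and 5701 in pools 1 to 3 of controls at ZT6 and 7617, 6698 and 7396 at ZT20. Retinas labelled cKO read 639, 774 and 293 at ZT6 and 369, 3595 and 3582 at ZT20. The pineal pools labelled cKO read 83.5, 29.1 and 30.9 at ZT6 and 22.5, 1897 and 960 at ZT20, against 3156 to 5268 in the 6 control pools. Pools 2 and 3 labelled cKO at ZT20 thus went part of the way against their label in both tissues, and the counts of members that passed are also given without them. Other values at ZT20, such as those of marker genes, pool spreads and correlations, include them.

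The members lie on 5 chromosomes in GRCm38.p6. Cryaa is at chr17:31677931-31681730, Cryba1 at chr11:77718614-77725293, Crygb at chr1:65080222-65082290 and Crygs at chr16:22805203-22811410. The other 4 are on chromosome 5, Cryba4 at chr5:112246492-112263625, Crybb1 at chr5:112254563-112269585, Crybb2 at chr5:113058258-113070117 and Crybb3 at chr5:113075839-113082236. The annotated spans of Cryba4 and Crybb1 share 9063 bases, and 5721 bases separate Crybb2 from Crybb3. RefSeq promoter windows, from 250 bases before to 50 bases after a transcription start, were found for all 8. In Cryba4, Crybb1 and Crybb3 the window lies inside the span given above, at a start that is not the end of that span. Because the 8 genes moved together from pool to pool, the windows were searched on both strands for TGCTGA, the core letters of MAF factor sites, which drive crystallin genes in lens fibres. It stood in 6 of the 8 windows, beside 19.5% of 32851 windows of the same length over all genes. 4 windows that hold it, and that of Crygb, 1 of the 2 without it, are printed with every match in capitals on the strand of the gene, where TCAGCA is the match on the other strand. They are Cryaa (chr17:31677681-31677980, + strand), Cryba4 (chr5:112252469-112252768, - strand), Crybb1 (chr5:112255570-112255869, + strand), Crybb3 (chr5:113081535-113081834, - strand) and Crygb (chr1:65082241-65082540, - strand).
Cryaa: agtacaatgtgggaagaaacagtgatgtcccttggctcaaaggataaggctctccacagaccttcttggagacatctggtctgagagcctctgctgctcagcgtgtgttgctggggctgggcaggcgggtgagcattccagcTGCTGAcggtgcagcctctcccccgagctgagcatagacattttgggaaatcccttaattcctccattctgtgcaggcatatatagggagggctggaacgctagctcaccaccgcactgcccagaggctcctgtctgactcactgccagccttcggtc
Cryba4: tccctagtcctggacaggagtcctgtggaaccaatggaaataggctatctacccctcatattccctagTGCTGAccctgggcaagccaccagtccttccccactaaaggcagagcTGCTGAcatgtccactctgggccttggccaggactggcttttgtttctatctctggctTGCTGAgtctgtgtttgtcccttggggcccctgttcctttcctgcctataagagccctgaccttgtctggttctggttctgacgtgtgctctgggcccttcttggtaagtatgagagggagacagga
Crybb1: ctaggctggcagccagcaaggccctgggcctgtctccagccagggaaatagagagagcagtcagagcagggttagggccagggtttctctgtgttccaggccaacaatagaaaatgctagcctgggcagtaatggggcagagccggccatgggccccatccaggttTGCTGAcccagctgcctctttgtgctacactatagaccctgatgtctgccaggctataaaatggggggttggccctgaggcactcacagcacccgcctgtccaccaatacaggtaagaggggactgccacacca
Crybb3: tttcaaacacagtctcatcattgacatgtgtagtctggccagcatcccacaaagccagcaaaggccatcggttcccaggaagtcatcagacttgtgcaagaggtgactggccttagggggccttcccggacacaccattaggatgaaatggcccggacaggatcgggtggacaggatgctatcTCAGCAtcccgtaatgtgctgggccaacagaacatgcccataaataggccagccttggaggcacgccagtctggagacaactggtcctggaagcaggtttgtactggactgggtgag
Crygb: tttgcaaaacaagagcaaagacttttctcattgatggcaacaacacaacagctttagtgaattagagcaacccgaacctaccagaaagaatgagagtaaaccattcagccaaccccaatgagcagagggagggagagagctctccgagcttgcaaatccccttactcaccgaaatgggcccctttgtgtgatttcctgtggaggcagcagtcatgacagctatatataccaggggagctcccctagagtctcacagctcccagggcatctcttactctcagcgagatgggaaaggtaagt

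Counted from the annotated start, the match began at base -108 in Cryaa, -84 in Crybb1, -67 in Crybb3, -57 in Cryba1 and -200 in Crygs. Cryba4 had 3 matches, at -182, -135 and -77. The windows of Crygb and Crybb2 had none of these letters, which says nothing of the factor. The windows of Cryba4 and Crybb1, neighbours read in opposite directions, lie 2801 bases apart. TAATCC, the core bound by CRX and OTX2, was in the window of Crygs only (7.06% of all windows), at -131. The E-box letters CAGATG, of the kind bound by NEUROD1 and its partners, were in those of Cryaa, Cryba1 and Crygs (17.2% of all windows). CAGCTG was in those of Cryaa, Cryba1 and Crybb1 (16.3%), and in Cryaa it overlapped the MAF letters. The heat shock element core GAANNTTC was in 0 of the 8 (7.86%). Such matches describe letters, not bound sites.

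All 8 members were read far above the array medians in every retinal pool, and in each group the same pools were the high or low ones in nearly every member. Cryaa, the chaperone subunit of alpha crystallin, read 8306, 5079 and 8719 in pools 1 to 3 of controls at ZT6 and 9167, 3535 and 3287 in controls at ZT20. In retinas labelled cKO it read 2918, 2602 and 9600 at ZT6 and 9612, 9178 and 5526 at ZT20. Control pool 1 at ZT20 and cKO pool 3 at ZT6 stood above the other pools of their groups, and the pools of both genotypes overlapped at both times.

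The acidic beta crystallins showed the same pools. Cryba1 read 12272, 9702 and 11480 in controls at ZT6, 12600, 6740 and 7335 in controls at ZT20, 6784, 6708 and 12112 in cKO at ZT6, and 11892, 11329 and 9590 in cKO at ZT20. Its highest pool was 1.88 times its lowest. Cryba4 read 7182, 2853 and 7328, then 6050, 1447 and 1613 in these control groups, and 1266, 1412 and 8681, then 6409, 5934 and 2956 in the cKO groups. Its range was 6.86-fold, and the highest and the lowest of its 12 pools, 3 and 1, were both in the group labelled cKO at ZT6.

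Among the basic beta crystallins the range was wider in Crybb1 and Crybb3. Crybb1, which pairs with acidic beta crystallins, read 6304, 1912 and 6471 in controls at ZT6, 4690, 1040 and 1248 in controls at ZT20, 1221, 1020 and 8590 in cKO at ZT6, and 5519, 4896 and 2096 in cKO at ZT20, a range of 8.42-fold. Crybb3 read 4663, 1419 and 4551, then 3718, 683 and 822 in controls, and 729, 764 and 6444, then 4563, 3349 and 1438 in cKO, a range of 9.44-fold. Crybb2, which has also been described in neural tissue, read 10088, 5898 and 9946, then 10090, 4375 and 4342 in controls, and 3469, 3700 and 10916, then 10442, 10133 and 6122 in cKO, a range of 3.15-fold. In all 3 genes the pool labelled cKO ZT6 number 3 was the highest of the 12.

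Both gamma crystallins followed. Crygb, a crystallin of the dense lens core, read 13410, 6443 and 11346 in controls at ZT6, 10037, 3906 and 4210 in controls at ZT20, 4193, 4015 and 13474 in cKO at ZT6, and 7883, 8562 and 5897 in cKO at ZT20. Crygs, which is made in the outer lens of the adult, read 11532, 7561 and 10797, then 11088, 4981 and 4623 in controls, and 4384, 4183 and 11674, then 11206, 10585 and 6898 in cKO. A probe set shared by Crygb and Crygc was left out, and because gamma crystallin genes are close copies, reads of one gene on the probe set of another cannot be told apart.

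**Figure D1:**
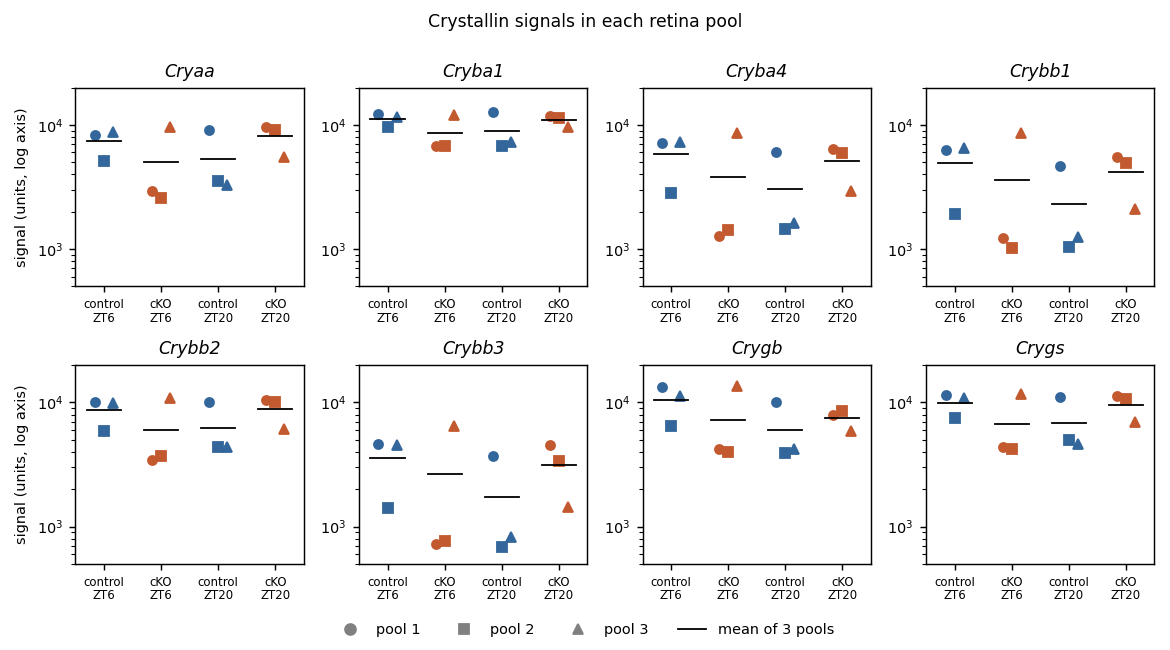
Signal of each of the 8 crystallin genes (linear units on a log axis) in the 12 retinal pools, by group, with circles, squares and triangles for pools 1, 2 and 3 and a line at the mean of 3 pools. In every gene pool 1 is the highest of the control ZT20 pools and pool 3 the highest of the cKO ZT6 pools, and the genotypes overlap at both times.

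The order of pools within a group was nearly the same gene by gene. Pool 2 was the lowest control pool at ZT6 and pool 3 the lowest cKO pool at ZT20 in 8 of 8 members, while pool 1 was the highest control pool at ZT20 and pool 3 the highest cKO pool at ZT6 in 8 of 8. In 6 pools all 8 members lay above the mean of their group on the log2 scale, and in the other 6 none did. The mean deviation of the 8 members from the group mean, in log2 of the signal plus 16, was 0.36, -0.67 and 0.31 in control pools 1 to 3 at ZT6 and 1.02, -0.55 and -0.47 at ZT20. In cKO pools it was -0.65, -0.69 and 1.34 at ZT6 and 0.33, 0.23 and -0.56 at ZT20. Quantile normalisation left these at 0.94 in control pool 1 at ZT20 and 1.43 in cKO pool 3 at ZT6. Over the 12 pools, deviations of any pair of members correlated at r = 0.958 to 0.998 (median 0.985, 28 pairs). These are descriptions over 12 pools that share arrays and amplification, and they carry no test.

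Most of the variation of the members in the retina lay between pools of one group. The share of the sum of squares within groups was 69.4% to 78.9% (median 73.8%), where the median of all genes tested was 55.4%. Genotype took 0.027% to 1.15%, against a median of 25.0% over all genes. After centring arrays on their medians genotype took 0.69% in Crybb3 to 12.1% in Cryba1, against 19.5% over all genes. The interaction of genotype with time took 18.5% to 30.2%, against a median of 4.24% over all genes. The SD between pools of a group was 0.36 log2 units in Cryba1, 0.60 in Crygs, 0.66 in Crybb2, 0.70 in Crygb, 0.73 in Cryaa, 1.08 in Cryba4, 1.21 in Crybb1 and 1.29 in Crybb3. All were above the median SD of 0.23 over all genes tested in the retina, at the 90.1 to 99.8 percentile.

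**Figure D2:**
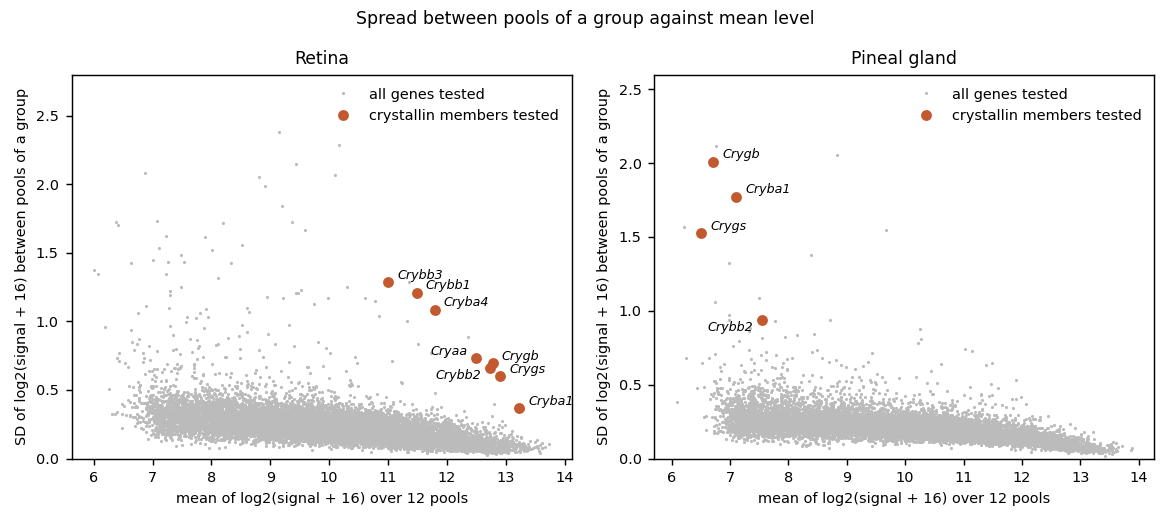
SD between pools of a group (log2 units) against the mean of log2(signal + 16) for all genes tested in the retina (left) and the pineal gland (right), with the crystallin genes in orange. The 8 members in the retina have SDs from 0.36 to 1.29 and the 4 tested in the pineal gland from 0.94 to 2.01, while the medians of all genes are 0.23 and 0.20.

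Group means were read beside this spread, without a test of their order. In Cryaa they ran from 5040 ± 3952 (SD, n = 3 pools) in cKO at ZT6 through 5330 ± 3325 in controls at ZT20 and 7368 ± 1993 in controls at ZT6 to 8105 ± 2244 in cKO at ZT20. Each gap between neighbours was smaller than the larger SD of the pair. Over the 8 members the highest group mean was 1.31 to 2.10 times the lowest.

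The first comparison asked whether loss of Neurod1 altered the members in the retina by day. By limma 0 of 8 passed at an adjusted p under 0.05, where 24.4% of the 11693 genes tested passed. All 8 differences were below 0, from -0.44 in Cryba1 (SE 0.21, adjusted p = 0.13, 95% interval -0.88 to 0.01) to -1.08 in Cryba4 (SE 0.61, adjusted p = 0.19, interval -2.37 to 0.20). The members' median was -0.74 and that of all genes 0.29. Of the 2854 genes called, 2721 were higher in cKO, but after centring arrays on their medians 798 of 1597 were, with a median of all genes of -0.02. At an unadjusted p under 0.05 the members' count was also 0. The adjusted count hung on 1 pool. Without cKO pool 3, the high one, 8 of 8 passed as lower, from -0.72 in Cryba1 to -2.04 in Crybb3 (adjusted p 0.012 to 0.034). The members were highest of their group in that pool, so leaving it out lowers the cKO mean by construction. Nothing is drawn from the 8 of 8, and no share of all genes was set beside it.

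At night the members' differences had the other sign. Again 0 of 8 passed by limma (0 at an unadjusted p under 0.05), where 6.51% of all genes did, and they ran from 0.35 in Cryba1 (SE 0.21, adjusted p = 0.41, 95% interval -0.09 to 0.79) to 1.12 in Crybb3 (SE 0.73, adjusted p = 0.45, interval -0.41 to 2.65). Without control pool 1, the high one, Cryba1 alone passed (0.63, adjusted p = 0.038). Leaving out a high control pool raises this difference by construction, so nothing is drawn from it. Without the pair labelled cKO that kept Neurod1 signal 0 of 8 passed, and the lone cKO pool, assumed to vary like the others, gave Crybb3 at 1.82 (adjusted p = 0.29).

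Averaged over both times the members lay between -0.14 in Crygb and 0.06 in Crybb1, and 0 of 8 passed (0 unadjusted), where 30.2% of all genes did. The 95% interval was -0.35 to 0.27 in Cryba1 and -1.03 to 1.14 in Crybb3. Changes within these limits, in either direction, were not excluded. Between night and day 0 of 8 passed (0 unadjusted, 0.419% of all genes), with differences from -0.29 in Crygb to 0.16 in Cryaa. Without pools 2 and 3 labelled cKO ZT20 both counts were 0 again. The difference of the genotype effect between night and day was 0.79 in Cryba1 to 2.13 in Crybb3, and it passed in 0 of 8 (adjusted p = 0.80 in each; 0 also without pools 2 and 3 labelled cKO ZT20) and in 0.0% of all genes. At an unadjusted p under 0.05 it held in 5 members and in 699 of all genes. The 95% interval was 0.16 to 1.41 in Cryba1 and -0.04 to 4.29 in Crybb3.

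Lens fibre genes were read next, because fibre cells are the main source of these crystallins in the eye. Of the 12 matched genes of a list for lens fibres and lens epithelium, 7 had deviations that correlated with the members' mean deviation at r above 0.9 over the 12 retinal pools. They were Mip, the lens water channel, Lim2, a fibre membrane protein, Bfsp1 and Bfsp2, the beaded filament proteins, Gja3, a lens gap junction protein, Grifin, a lens galectin, and Dnase2b, the nuclease that clears fibre nuclei. Mip read 3653, 948 and 5332 in controls at ZT6, 3092, 227 and 246 in controls at ZT20, 116, 139 and 6558 in cKO at ZT6, and 5453, 4892 and 375 in cKO at ZT20. The pools with the highest crystallin signals were the highest in Mip, and its signals ran from 116 to 6558. Genes of the list with r of 0.9 or less ran from -0.133 in Tdrd7 to 0.869 in Birc7. Of the 10 tested genes of the list 0 passed between genotypes at ZT6 or at ZT20 (limma, 0 and 1 at an unadjusted p under 0.05). At these times 24.4% and 6.51% of all genes passed. Over the mean of both times 1 passed, as lower in cKO, where 30.2% of all genes passed in either direction.

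The summed signal of the 4 defining genes on the arrays, Mip, Lim2, Bfsp1 and Bfsp2, ran from 1849 to 13133 in controls at ZT6, 621 to 6468 in controls at ZT20, 338.5 to 18074 in cKO at ZT6 and 1054 to 8979 in cKO at ZT20. None was at 0. Their mean deviation correlated with that of the members at r = 0.986 (rho 0.888, n = 12 pools) and at 0.980 without the 2 pools farthest from the median. For 1 log2 unit of these markers the members moved by 0.16 in Cryba1 to 0.60 in Crybb3 (median 0.33), so that the crystallin signals ranged less than the markers. The SD between pools of a group was 0.099 to 0.23 once the markers' deviation had been fitted, against 0.36 to 1.29 before. The marker mean was also fitted as a covariate, an alternative added after the values had been seen. Then 0 of 8 members passed in each of the 5 retinal comparisons, as without it. The difference at ZT6 was -0.077 in Cryba4 (adjusted p = 0.70) in place of -1.08. Markers and members moved together in these same pools, so the fit takes out a shared difference of any source. Nothing is drawn from it. In bulk tissue, more lens cells and more RNA per cell cannot be told apart, and the part of lens RNA in the crystallin signal was not tested.

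**Figure D3:**
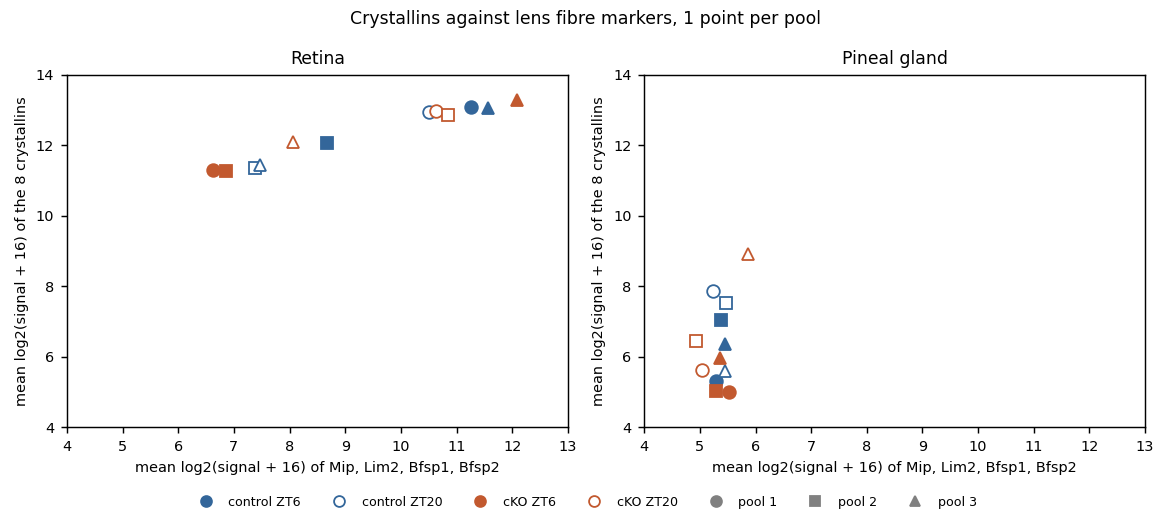
Mean log2(signal + 16) of the 8 crystallins against that of 4 lens fibre genes, 1 point per pool, for the retina (left) and the pineal gland (right), with colour for genotype, filled points for ZT6 and open points for ZT20. Retinal pools of both genotypes and times lie along 1 band, and the pineal pools differ in crystallins with little difference in the lens genes.

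In 4 retinal pools, control pools 2 and 3 at ZT20 and cKO pools 1 and 2 at ZT6, Mip was at 116 to 246.5 units and the summed markers at 338.5 to 661.5. The members were still well above the array medians there, with Cryaa at 2602 to 3535, Cryba1 at 6708 to 7335 and Crybb3 at 683 to 822. Their levels in these 4 pools lay close together across genotype and time. The pools were picked by their values, and no test was made of them.

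The 10 genes outside the member list whose deviations most resembled the members' mean in the retina were Cryba2 (r = 0.998), Lim2 (0.989), Grifin (0.987), Tmem40 (0.987), Crygd (0.987), Bfsp2 (0.979), Cryab (0.976), Mip (0.975), Fabp5 (0.973) and Bfsp1 (0.970), all over 12 pools. Of all genes tested 27 were above 0.9. Cryba2, an acidic beta crystallin, read 5537, 1879 and 5768, then 5216, 1044 and 1044 in control pools at ZT6 and ZT20, and 791, 828 and 7112, then 6159, 5106 and 1980 in cKO pools. It had the pool order of the members.

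Of 12 further crystallin genes 10 were matched on the arrays, and 5 of them had an r above 0.9, namely Cryba2, Crygd, Cryab, Crygf and Crygn. Cryab, the other alpha crystallin, is also made outside the lens, in glia and muscle, and read 7178 to 12940 in the retina. Crym, an enzyme and thyroid hormone binding protein named for its homology to crystallins of marsupials, behaved otherwise (r = 0.29). It read 1113 to 1742 in the 6 control pools and 2551 to 4654 in the cKO pools, without overlap, and was higher in cKO by 1.35 ± 0.18 (SE) at ZT6 (adjusted p = 1.0e-04) and 1.30 ± 0.18 at ZT20 (adjusted p = 1.8e-04). Cryl1, a dehydrogenase, was higher at ZT6 (0.90 ± 0.28, adjusted p = 0.028). These were the 2 of 9 tested genes of that list that passed at ZT6, and Crym was the 1 that passed at ZT20. Of all genes 24.4% and 6.51% passed in either direction, so nothing is drawn from these counts. Crybg1 (r = 0.74), Cryz (0.58), Cryl1 (0.50) and Crybg3 (0.05), which share a name or a fold with crystallins but not their lens role, followed the members less closely.

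**Figure D4:**
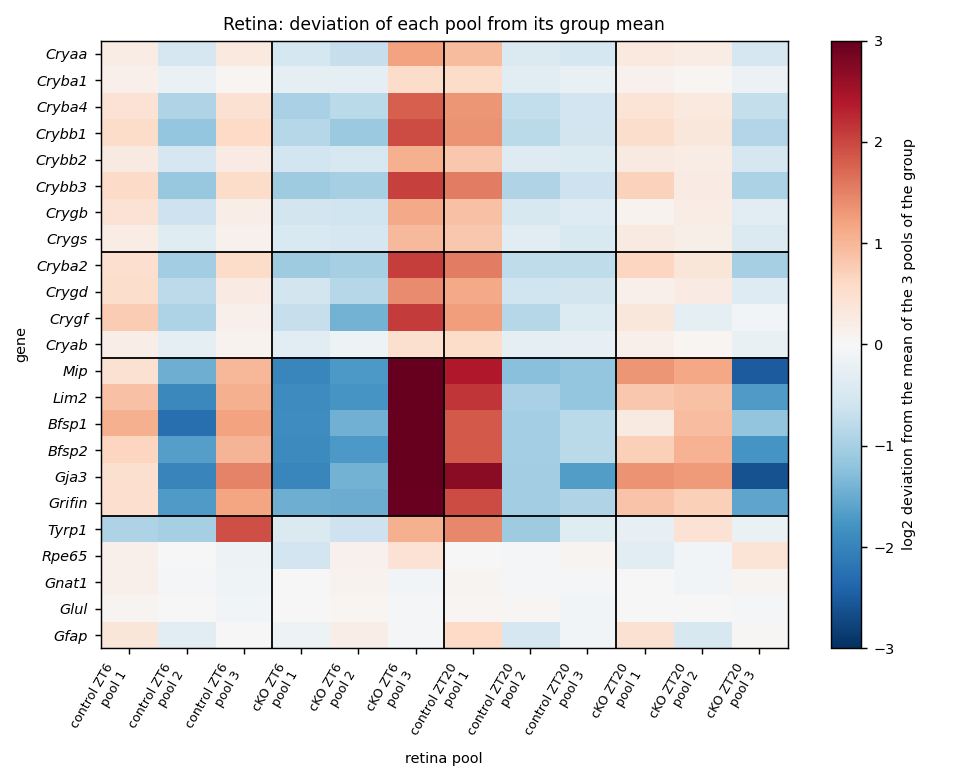
Log2 deviation of each retinal pool from the mean of the 3 pools of its group, for the 8 members, 4 other crystallins, 6 lens fibre genes and markers of pigment epithelium, rods and glia (from top to bottom, colours end at -3 and 3). The members and lens genes are high in the same 6 pools, while Gnat1 and Glul hardly differ between pools of a group.

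Markers of other cells moved less with the members. Summed over 11 genes, pigment epithelium and melanocyte markers ran from 8091 to 23715 over the retinal pools, and their mean deviation had r = 0.733 with the members but 0.470 without the 2 pools farthest from the median. Of 10 tested, 0 were called at ZT6 (limma, 1 at an unadjusted p under 0.05), 4 were higher in cKO at ZT20 and 6 over both times. Of all genes, 24.4%, 6.51% and 30.2% were called in either direction. Rod genes had r = -0.212, and Gnat1, the rod transducin, was at 12191 to 15032 in all 12 pools. Müller glia genes had r = 0.381, gliosis genes 0.229 and cornea, iris and ciliary body genes 0.251, and Kera, a defining corneal gene, was at or under 10.3 units in every retinal pool. By limma Gfap, the intermediate filament of reactive glia, was higher in cKO by 2.68 ± 0.27 at ZT6 (adjusted p = 5.9e-06) and 3.37 ± 0.27 at ZT20 (adjusted p = 6.1e-07). All 11 tested genes of the gliosis list were higher in cKO at both times, beside 24.4% and 6.51% of all genes called. The part of these cells in the crystallin signal was not tested.

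Among small heat shock proteins and chaperones, relatives or helpers of alpha crystallin, 5 of 11 tested genes were higher in cKO at ZT6 and 2 at ZT20, beside 24.4% and 6.51% of all genes called in either direction. Their mean deviation had r = 0.715 with the members, and Hspb1 alone 0.884, but the median r over the 12 genes was 0.007, and Hspa1a had -0.312. Of 16 tested genes that regulate crystallins in the lens, 6 were higher at ZT6 and 0 at ZT20 (limma, 6 at an unadjusted p under 0.05), and 9 over the mean of both times, where 30.2% of all genes were called. In all 3 comparisons most calls over all genes were higher before median centring. The mean deviation of the 18 matched regulators had r = 0.623 with the members. Their median r was -0.098, from -0.677 in Crebbp to 0.937 in Sox1, a fibre factor. Maf, the fibre cell factor, had r = 0.760, Pax6 0.049 and Prox1 -0.144. Sox1 read 107 to 317 in the 6 pools in which all members lay above their group mean, and 3.8 to 26.9 in the 6 others.

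In the pineal gland, which is far from the lens, the members read lower in every pool than in any retinal pool. In controls the limma difference of retina minus pineal gland was 5.03 ± 0.36 (SE) in Crybb2 (adjusted p = 1.6e-13) and 5.72 ± 0.56 in Cryba1 (adjusted p = 1.7e-10), and 74.4% of 12881 genes passed in either direction. Cryaa, Cryba4, Crybb1 and Crybb3 entered that fit only through their retinal pools, so nothing is drawn from how many passed. Many pineal signals lay below the array medians, and the size of the difference depends on the 16 units added before the logarithm.

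Cryba1 read 18.4, 344 and 131 in control glands at ZT6, 632, 616 and 36.9 in controls at ZT20, 13.4, 8.9 and 90.8 in cKO at ZT6, and 53.9, 179 and 1081 in cKO at ZT20. Crygb read 9.3, 282 and 63.5, then 532, 552 and 13.8 in controls, and 0.8, 9.2 and 37.1, then 45.5, 123 and 1711 in cKO. Each had pools well above and pools below the array medians, and pool 3 labelled cKO ZT20 was the highest in both. Crygs read 4.7, 118 and 122, then 255, 321 and 19.6 in controls, and 21.7, 10.1 and 61.5, then 43.3, 80.1 and 567 in cKO.

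Crybb2 read 88.5, 265 and 184, then 368, 280 and 124 in control glands, and 113, 93.4 and 143, then 67.8, 146 and 658 in cKO. The other 4 members, Cryaa, Cryba4, Crybb1 and Crybb3, were at 2.8 to 295 units and did not pass the filter on low signals, which asked for 3 pools above the array median. The 4 that passed did so through their high pools, so nothing is drawn from their number. Pool 3 labelled cKO ZT20 was the highest of its group in 8 of 8 members and control pool 3 at ZT20 the lowest of its group in 8 of 8.

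**Figure D5:**
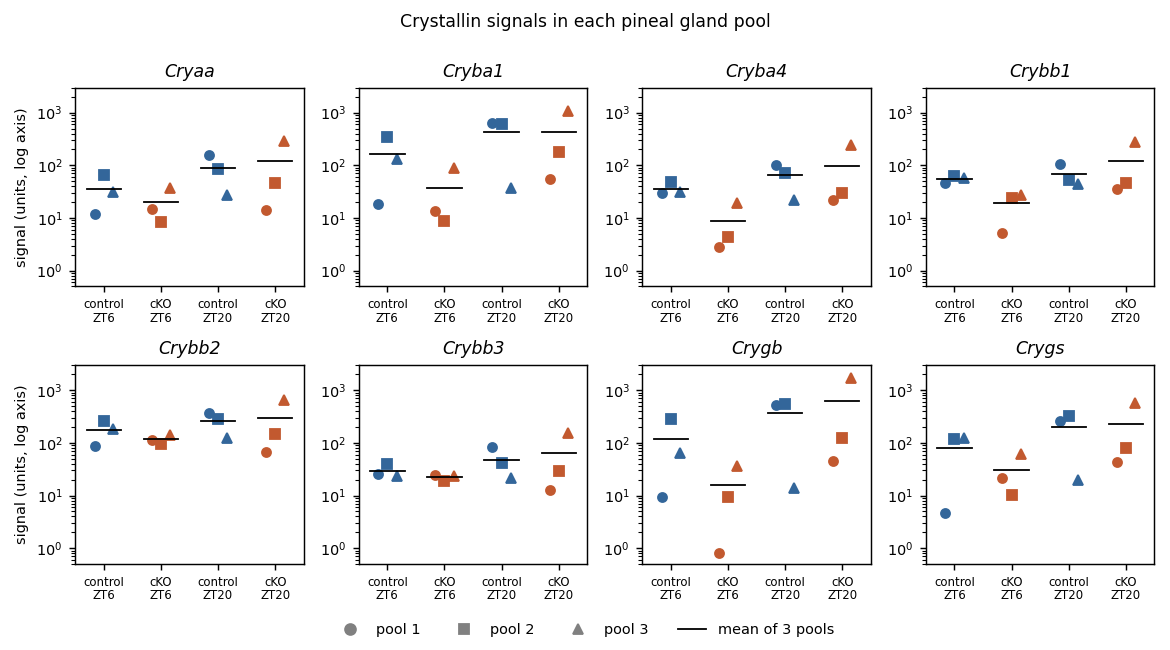
Signal of each of the 8 crystallin genes (linear units on a log axis) in the 12 pineal pools, drawn as for the retina. Pool 3 of the cKO ZT20 group is the highest of its group in all 8 genes, and Cryba1 reads from 8.9 to 1081 units over the 12 pools.

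The SD between pineal pools of a group was 0.94 log2 units in Crybb2, 1.53 in Crygs, 1.77 in Cryba1 and 2.01 in Crygb, at the 99.9 percentile of all genes or higher, whose median was 0.20. Deviations of pairs of members correlated at r = 0.694 to 0.987 (median 0.914, 28 pairs, 12 pools). The mean deviations of same-numbered retinal and pineal pools had r = 0.004 (rho -0.077, n = 12), so the deviations showed no common linear order. Pool 1 of controls at ZT20 and pool 3 of cKO at ZT6 were nonetheless the highest of their groups in 8 of 8 members in the retina and in 6 and 7 of 8 in the pineal gland.

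In pineal glands by day, 2 of the 4 tested members passed as lower in cKO, where 1.94% of 11936 genes passed in either direction. They were Cryba1 (-1.51 ± 0.41, adjusted p = 0.018) and Crygb (-1.58 ± 0.45, adjusted p = 0.033), although the pools of both genotypes overlapped in each. The median of all genes was 0.03, and 0.25 after median centring, when Cryba1 lay at -1.29 (adjusted p = 0.25). Pools that share a number in these groups had correlated deviations, and with the pool number as a block neither passed (adjusted p = 0.26 and 0.33). Neither passed after median centring, quantile normalisation or trimmed-mean scaling, nor without control pool 2 at ZT6 or cKO pool 3 at ZT20, and without control pool 1 at ZT6 1 did. Without the pair labelled cKO ZT20 that kept Neurod1 signal, which enter only through the shared spread, 0 passed (adjusted p = 0.11 and 0.13). The fit behind every pineal comparison leaned on a spread shared by all genes (154.4 prior degrees of freedom beside 8 residual ones). Crygb had an SE of 0.45 here, while its own SD between pools was 2.01. Pineal SEs, intervals and p-values thus treat the pools of these members as closer together than they were.

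Among the untested members, Cryba4 read 29.8 to 48.2 in controls and 2.8 to 19.2 in cKO at ZT6, and Crybb1 45.4 to 63.0 and 5.2 to 27.7. All of these signals were below the array medians. At night 0 of 4 passed (0 unadjusted, 1.02% of all genes), with Crygb at 0.22 (95% interval -0.66 to 1.11). Without control pool 3, the low one, 2 passed, and Crygb turned to -1.19 (adjusted p = 0.032). Leaving out a low control pool lowers the difference by construction, so nothing is drawn from this count. Without pools 2 and 3 labelled cKO 1 passed.

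Averaged over both times 0 of 4 passed in the pineal gland (2 at an unadjusted p under 0.05, 3.17% of all genes adjusted), with Cryba1 at -0.85 (adjusted p = 0.086). Without the pair of pools labelled cKO that kept Neurod1 signal 3 of 4 passed. Leaving out control ZT20 pool 3 also gave 3, leaving out cKO ZT6 pool 2 or 3 gave 2, and leaving out cKO ZT6 pool 1 or cKO ZT20 pool 2 or 3 gave 1. For pineal counts with pools left out, here and in the other pineal comparisons, no share of all genes was set beside them. Nothing is drawn from those counts. The difference of the genotype effect between night and day passed in 0 of 4 (2 unadjusted, 0.36% of all genes), with Crygb at 1.80 (adjusted p = 0.36). It passed in 0 without pools 2 and 3 labelled cKO ZT20, in 2 without control ZT20 pool 1 or 2, cKO ZT6 pool 3 or cKO ZT20 pool 1 or 2, and in 1 without cKO ZT6 pool 2.

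Between night and day 4 of 4 passed as higher at ZT20, where 19.5% of all genes passed in either direction. These 4 had entered the test through their high pools, and in Crygs the highest of these (255, 321 and 567) were all at ZT20. So nothing is read from their number or their shared direction. Cryba1 differed by 1.86 ± 0.29 (adjusted p = 4.5e-08), Crygb by 2.22 ± 0.32 (adjusted p = 3.6e-09), Crygs by 1.42 ± 0.27 (adjusted p = 1.5e-05) and Crybb2 by 0.58 ± 0.20 (adjusted p = 0.030). The ZT6 and ZT20 pools overlapped in every member, control pool 3 at ZT20 being among the low ones. Without the variance trend 0 of 4 passed (adjusted p 0.09 to 0.37), and without pools 2 and 3 labelled cKO ZT20 1 did, Crybb2 then lying at -0.083. Without cKO ZT20 pool 3 alone 2 passed.

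Lens fibre markers were low in all pineal pools. The summed signal of Mip, Lim2, Bfsp1 and Bfsp2 was 105 to 144 in controls at ZT6, 101 to 134 in controls at ZT20, 104 to 150 in cKO at ZT6 and 62.0 to 187 in cKO at ZT20, with Mip at 6.1 to 22.1. Over the 12 pools their deviation had r = 0.593 with the mean of all 8 members, and 0.436 without the 2 pools farthest from the median. Pool 3 labelled cKO ZT20, with the highest crystallin signals, had the 187.

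Retinal markers were read in the glands as well. Gnat1 was at 72.6, 1267 and 3830 in controls at ZT6, 958, 732 and 172 in controls at ZT20, 115, 76.9 and 2234 in cKO at ZT6, and 151, 447 and 621 in cKO at ZT20. Its deviation had r = 0.652 with the members, and that of Rlbp1, a retinoid binding protein of Müller glia, 0.691. Of the highest Gnat1 pools, cKO pool 3 at ZT6 was also the highest of its group in 7 of 8 members, and control pool 3 at ZT6 in 1 of 8. Cryab, at 9496 to 10972 in every gland, did not move with the members there. The part of retinal or lens RNA in the pineal signal was not tested.

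The 5 genes most like the mean of the 4 tested members in the pineal gland were Crygd (r = 0.986), B4galt6 (0.954), Sntb1 (0.940), Elovl4 (0.915) and Lratd2 (0.902), over 12 pools. Crygd, another gamma crystallin, read 5.8, 110 and 39.0, then 249.3, 170 and 11.6 in controls, and 12.0, 1.8 and 35.7, then 41.2, 85.6 and 917 in cKO. It was high in the same pools as Crygb, with which it shares much of its sequence.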

How the data were processed

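Affymetrix mouse genome arrays measured RNA from 24 pools. Per the labels' protocols it was extracted with RNeasy Micro and amplified and labelled with NuGEN kits. The deposited values are linear signal intensities, made with GCOS per the submitters' processing notes. Scaling, detection calls and software versions are not given in the sources used here.

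Of 45101 probe sets, 34958 have 1 gene symbol in the platform annotation, 932 have several and 9211 none; 64 controls were left out. For a gene with several probe sets the one with the highest mean over all arrays was used, those whose name ends in _x_at last, which gave 18193 genes. Log2(signal + 16) of genes above the array median on at least 3 arrays entered linear models (lmFit and eBayes of limma 3.58.1, R 4.3.3, with a variance trend), per tissue over 12 arrays and, for the tissue difference, over 24. P-values were adjusted by Benjamini-Hochberg over all genes tested, with a threshold of 0.05. Differences are log2 values, and the fit was tested on simulated data. Deviations are a pool's log2 value minus the mean of its group's 3 pools. The number of arrays limits the precision.

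The members, the marker lists and the tests were chosen with earlier results of these data known. Named genes were the 8 members, Neurod1, the other crystallins of the list, defining genes of the marker lists (or up to 4 that passed, or 2 with the highest mean), and the 10 retinal and 5 pineal genes most correlated with the members' mean deviation, skipping clones, predicted and sex-linked genes. Others were chosen after their values were seen.

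Same-numbered pools of control and cKO pineal glands at ZT6 had deviations correlated at 0.186 to 0.349, which met the rule for pairing (every pair over 0.1), so the value with the pool number as a block stands beside that result. Alternatives covered scaling, pseudocount, filter, variance trend, the choice of probe set, the pool number as a block and leaving out pools.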

Additional observations from a re-analysis of the deposited data

How the results depend on the processing

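Counts of members passing limma's threshold in the retina (0 in each comparison) kept their value under every alternative to scaling, pseudocount, filter, variance trend, probe set, replicate block and the lens marker covariate. Leaving out 1 pool moved the retinal count from 0 to 8 at ZT6 and from 0 to 1 at ZT20, and gave 0 in the other retinal comparisons. In the pineal gland at ZT6 the count of 2 fell to 0 with median centring, quantile normalisation, trimmed-mean scaling, a pseudocount of 64, no filter, no variance trend, the mean of probe sets, every probe set, the replicate block, or without cKO ZT20 pools 2 and 3, and ran from 0 to 3 with 1 pool left out. For the pineal gland at ZT20 it was 1 without those pools and 0 to 2 with 1 pool left out, for the mean of both times 3 and 0 to 3, and for the interaction 0 to 2 with 1 pool left out. The pineal night to day count of 4 was 2 with median centring, no filter or the mean of probe sets, 1 with quantile normalisation, trimmed-mean scaling or without those pools, 0 without the variance trend, 3 with the replicate block (Crybb2, adjusted p = 0.095) and 2 to 4 with 1 pool left out. No share of all genes was set beside the counts with pools left out. Many differences changed sign under some alternative. Crygb at ZT20 in the pineal gland was -1.19 without control pool 3 (its range with 1 pool left out was -1.19 to 1.22). Crybb2 between night and day there was -0.083 without cKO ZT20 pools 2 and 3. With 1 pool left out, Crybb1 over both times in the retina ran from -0.43 to 0.40. Cryba1 at ZT20 in the pineal gland ran from -1.38 to 0.73. The median SD between pineal pools, 1.65, was 1.17 with a pseudocount of 64. With a pseudocount of 1 the SD rose, in Crygb from 2.01 to 2.59. Without the filter the median was 1.02 because it then took in all 8 members, while the SDs of those tested stayed the same. The cause of the other changes was not tested. Same-numbered pools of the other groups did not meet the rule for pairing (correlations of -0.531 to 0.408 in the retina). Whether they share animals is not known. Beyond the pineal calls at ZT6 and between night and day given above, the block changed no call. Signals near the array medians limit the 4 pineal members that were not tested.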

Other observations

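Some genes outside the members read far higher in 1 retinal pool, cKO pool 3 at ZT6, than in any other. Their deviations still followed the members' mean, with r from 0.869 in Birc7 to 0.936 in Crygf. Cryga, a gamma crystallin chosen after its values were seen, read 4625 in cKO pool 3 at ZT6 and 82.7 to 1080 in the other 11 pools. Crygf, another gamma crystallin, read 8589 in that pool and 542 to 3664 in the others. Dnase2b, the nuclease of maturing lens fibres, read 743 there and 8.4 to 412 elsewhere, and Birc7, an inhibitor of apoptosis found in lens, read 839 there and 23.2 to 305 elsewhere.

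Markers of pigmented cells followed the members less closely. Tyrp1, an enzyme of melanin synthesis, read 2505, 3999 and 2563 in cKO pools at ZT20 and 1419 in control pool 1 at ZT20, beside 235 and 397 in the other control pools at that time. At ZT6 it read 2273 in control pool 3 and 2307 in cKO pool 3 and 286 to 801 in the other 4 pools, and over the 12 pools its deviation had r = 0.709 with the members. Mlana, a melanosome protein, read 3138, 4273 and 3059 in those cKO pools and 1508 in the control pool, and 1952 and 2769 in those pools at ZT6 (r = 0.725). By limma cKO was higher at ZT20 by 2.48 ± 0.67 (SE) in Tyrp1 (adjusted p = 0.032) and by 3.36 ± 0.94 in Mlana (adjusted p = 0.041), and neither passed at ZT6 (adjusted p = 0.32 and 0.26). Aldh3a1, the main soluble protein of the cornea, read 2044 and 1039 in cKO pools 1 and 2 at ZT20 and 1098 in control pool 1 at ZT20, but 61.9 in cKO pool 3 at ZT6, the pool with the highest crystallin signals. It passed at neither time (adjusted p = 0.28 at ZT6 and 0.45 at ZT20, limma).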
